A study of Danio rerio with 13 samples.

Results

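Hearts purified from zebrafish embryos in which atg5 or atg7 had been targeted by a morpholino were compared with each other, to show where the 2 knockdowns gave the same transcript levels and where they parted. The arrays were chosen by their labels alone: 3 atg5 and 2 atg7 arrays of the 13 in the series. Every embryo was 3 days old, and the injected ones had received their morpholino, a synthetic antisense oligonucleotide, as a single cell. The 2 groups were also set against 5 control arrays, 2 from embryos injected with a control morpholino and 3 from embryos that were not injected. The remaining 3 arrays, of becn1 morphants, entered the normalization, the filter and the estimate of the spread between arrays, and no test compared them with the others. The labels name no strain, no mutant allele and no transgene. They do not say whether a morpholino blocked translation or splicing, nor how many embryos went into a preparation. They call the arrays biological replicates, so the p-values measure the spread between heart preparations. Arrays carry the number of their title below.

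Autophagy delivers cytoplasm to the lysosome in a double-membraned vesicle, the autophagosome. Atg7 is the activating enzyme of both ubiquitin-like conjugation reactions that build it: it charges Atg12, which Atg10 then joins to Atg5, and it charges the Atg8 proteins (LC3 and GABARAP), which Atg3 joins to a membrane lipid. The Atg12-Atg5 conjugate, bound to Atg16l1, directs that last step, so both genes are required for the same event, the lipidation of LC3.

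Levels below are log2 intensities of a probe set after quantile normalization over the 13 arrays, and a difference is atg7 minus atg5 unless another order is given. An intensity under 16 was taken as too weak for an exact difference. Differences that rest on such values are given floored, with intensities under 16 set to 16, while tests used the values as measured. A probe set was called at a limma adjusted p under 0.05 over the 10307 probe sets kept. The word controls means the average of the control morpholino and the uninjected group means.

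The arrays did not fall into their labelled groups. By correlation of levels across the kept probe sets, atg7 1 was most like becn1 1 (0.982) and atg7 2 most like becn1 2 (0.969), while the atg7 arrays correlated at 0.943 with each other. atg5 2 and atg5 3 were most like each other (0.980), and atg5 1 was most like control morpholino 2 (0.960). The RNA of atg7 2 also stood apart, since its 3' to 5' signal ratio was 5.98 for GAPDH, where no other array exceeded 3.28, and 86.2 for acta1, where no other exceeded 29.9. Whether this had a part in any difference was not tested, so counts of calls are also given without single arrays. Deposited median intensities ran from 32.4 to 65.4 between arrays. Of the contractile genes of the myocardium, 22 of the 28 on the array passed the filter on weak signals, among them myl7, tnnt2a and cmlc1. Genes of retina, lens, liver, muscle and skin were measured on every array too, so the preparations held RNA of other tissues. With whole preparations, fewer cells of a type and less RNA per cell cannot be told apart.

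**Figure D1:**
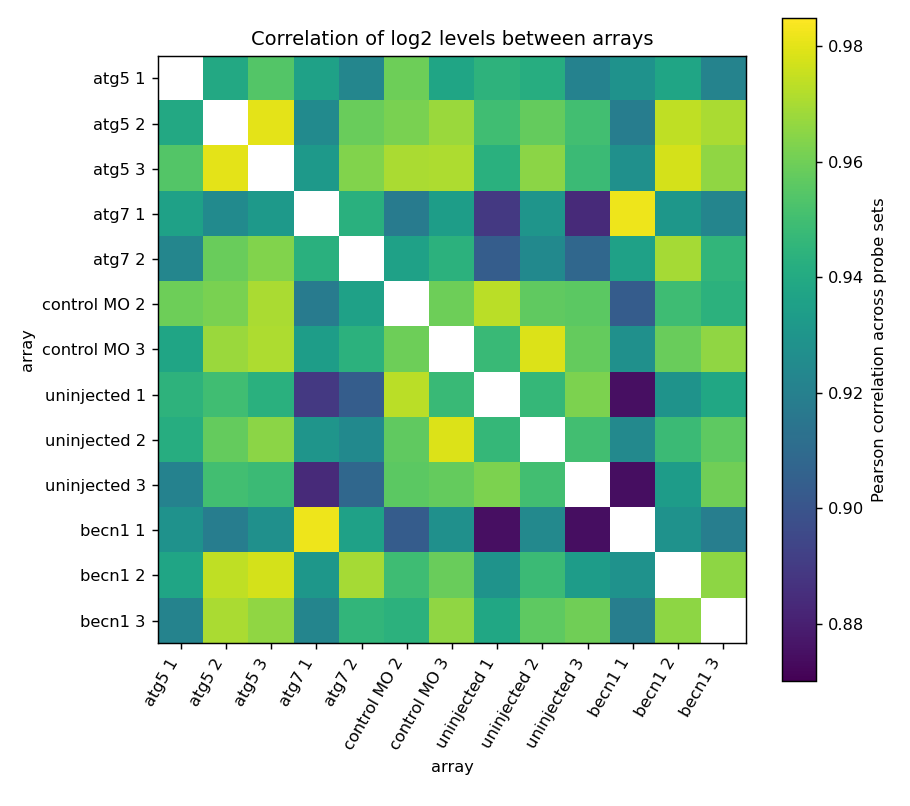
Pearson correlation of log2 levels over the 10307 kept probe sets for every pair of the 13 arrays. Both axes list the arrays by group and title number, and the colour gives the correlation: atg7 1 and becn1 1 make the highest pair (0.982), and the atg7 arrays lie at 0.943.

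The genes of the conjugation step itself are given first. Limma called 0 of them between the knockdowns, where it called 0.0194% of all probe sets, so a count of 0 says nothing about them as a group. Of the 19 genes listed, 8 had a named probe set and 7 passed the filter on weak signals. map1lc3c did not pass it, and atg7, atg10 and atg16l1 had no named probe set, so the level of the atg7 target itself is not reported. atg5, the target of one of the morpholinos, lay at 8.24, 8.26 and 8.14 on the 3 atg5 arrays, 8.08 and 8.10 on the atg7 arrays, and 7.87 to 8.22 on the controls (probe set Dr.12686.1.A1_at). The atg5 morphants were thus no lower than the others in the transcript they had been injected against, and the difference was -0.12 (SE 0.17, 95% interval -0.49 to 0.25). Another atg5 probe set, Dr.12686.2.S1_at, gave 0.12 (SE 0.24). A morpholino need not remove its target's mRNA, so these levels check neither the labels nor the loss of the protein.

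Of 4 Atg8 family transcripts, gabarapa, map1lc3a and map1lc3b lay lower on both atg7 arrays than on all atg5 arrays, with none called. gabarapa was at 8.05, 7.72 and 8.09 in atg5 and 7.203 and 7.40 in atg7 hearts, with controls from 7.46 to 8.02. Its atg5 and atg7 arrays did not overlap, and the difference was -0.65 (SE 0.22, adjusted p = 0.319, 95% interval -1.12 to -0.18). The LC3 genes map1lc3a and map1lc3b differed by -0.40 (SE 0.19) and -0.44 (SE 0.20), and gabarapl2 by -0.31 (SE 0.30). For gabarapl2 atg7 2 lay at 8.17, above every atg5 array, and the difference was 0.16 without atg7 1. atg3, the conjugating enzyme of LC3, differed by 0.34 (SE 0.25), and atg12, the ubiquitin-like partner of Atg5, by 0.00 (SE 0.35). Over the 7 genes the median was -0.31, against -0.00 over all probe sets, and it was -0.11 without atg7 1 and -0.57 without atg7 2.

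Of the genes upstream and downstream of the conjugation step, limma also called 0 between the knockdowns, where it called 0.0194% of all probe sets. A count of 0 again says nothing about them as a group. Over all probe sets, 5175 of 10307 lay lower in atg7 hearts. Of 26 genes of autophagy initiation and cargo receptors on the array, 22 passed the filter, of which 17 were lower in atg7 hearts (median -0.20). bnip3lb, a mitophagy receptor, differed by -0.61 (SE 0.26), and ulk1b, a kinase that starts autophagy, by -0.55 (SE 0.26). nbr1a, a cargo receptor, differed by -0.39 (SE 0.21) and wipi2, which binds the lipid of the growing membrane, by -0.38 (SE 0.22). This median was -0.05 without atg7 1. Among 34 lysosome genes kept, 26 lay lower in atg7 hearts, with a median of -0.16, which was -0.07 without atg5 1. The largest differences by p were of the proton pump genes atp6ap2 (-0.48, SE 0.19) and atp6v1ba (-0.37, SE 0.16).

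Between the knockdowns limma called 2 of 10307 probe sets (0.0194%), both higher in atg7 hearts and 0 lower, and 1212 (11.8%) had an unadjusted p under 0.05. Neither has a gene symbol in the annotation used here. Dr.2040.1.A1_at lay at 5.44, 5.29 and 5.51 on the atg5 arrays and 7.74 and 8.93 on the atg7 arrays, with controls from 4.61 to 5.64. The atg5 arrays lay within the control range and both atg7 arrays far above it, a difference of 2.92 (SE 0.38, adjusted p = 0.0190). Dr.25060.3.A1_at lay at 6.51 and 7.97 in atg7 hearts and under an intensity of 16 on 2 of the 3 atg5 arrays, so its size is not exact (adjusted p = 0.0190). The count was 0 without atg5 1, atg5 2 or atg7 2, 1 without atg5 3 and 2 without atg7 1. On the deposited scale with no quantile normalization it was 14, with 5 higher and 9 lower.

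Genes of each direction were named by the smallest p among those whose atg5 and atg7 arrays did not overlap. That separation was therefore set by the choice. None of the genes named as higher in atg7 hearts was called. cnot10, of the CCR4-NOT complex that shortens mRNA tails, was at 5.44, 5.83 and 5.84 in atg5 hearts and 7.07 and 7.18 in atg7 hearts. Controls lay between 5.38 and 5.85, so the atg7 arrays alone stood apart, by 1.42 (SE 0.21, adjusted p = 0.0511). cyp26a1, the enzyme that degrades retinoic acid, was at 5.63, 5.31 and 5.67 in atg5 and 7.10 and 7.56 in atg7 hearts, with controls from 4.87 to 6.12. Here too only the atg7 arrays left the control range, with a difference of 1.79 (SE 0.28, adjusted p = 0.0511). Against the controls, cnot10 and cyp26a1 rose in atg7 hearts by 1.498 (adjusted p = 0.00531) and 1.78 (adjusted p = 0.0134), and the atg5 differences were 0.08 and -0.01.

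mms22l, a repair factor of stalled replication forks, differed between the knockdowns by 1.35 (SE 0.25), and the ribosome biogenesis gene tex10 by 1.02 (SE 0.19). enc3 differed by 0.92 (SE 0.18), wars1, the tryptophan tRNA synthetase, by 0.83 (SE 0.16), and cpsf2, a subunit of the mRNA cleavage factor, by 0.91 (SE 0.19). For each of these 5 genes the atg7 arrays lay above every atg5 and every control array. si:ch211-132d3.4, which has no role known here, lay at 8.34, 8.64 and 8.597 in atg5 and 9.39 and 9.97 in atg7 hearts, and its 5 morphant arrays were all above the controls, which reached 8.29. Its difference between the knockdowns was 1.15 (SE 0.20, adjusted p = 0.115), and its other probe sets gave 1.42 and 0.48. In both of those the atg5 arrays overlapped the controls. Another cpsf2 probe set gave 0.63.

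None of the named genes lower in atg7 hearts was called either. pde4ba, a phosphodiesterase that removes cyclic AMP, was at 6.32, 6.19 and 6.32 in atg5 and 5.11 and 4.88 in atg7 hearts, below every control array. The difference was -1.28 (SE 0.23, adjusted p = 0.115), but another, brighter pde4ba probe set differed by -0.16 (SE 0.24). bada, the cell death gene Bad, was at 7.21, 6.94 and 7.02 in atg5 and 5.05 and 5.996 in atg7 hearts, against 6.24 to 7.02 on the controls. Both atg7 arrays lay below the controls and the atg5 arrays at the top of their range or above it, a difference of -1.53 (SE 0.30, adjusted p = 0.152). npas4a, a transcription factor induced by neuronal activity, differed by -2.25 (SE 0.53), negr1, a neuronal adhesion gene, by -1.19 (SE 0.27), and mxd4, a partner of Max, by -1.14 (SE 0.27). eif4a1b, a helicase of translation initiation, differed by -0.64 (SE 0.15). The chromatin remodeller smarca2 differed by -0.82 (SE 0.20), with -0.25 (SE 0.34) in another probe set. Of these, npas4a and pde4ba fell in atg7 hearts against the controls (-2.67, adjusted p = 0.0380, and -1.25, adjusted p = 0.0275).

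**Figure D2:**
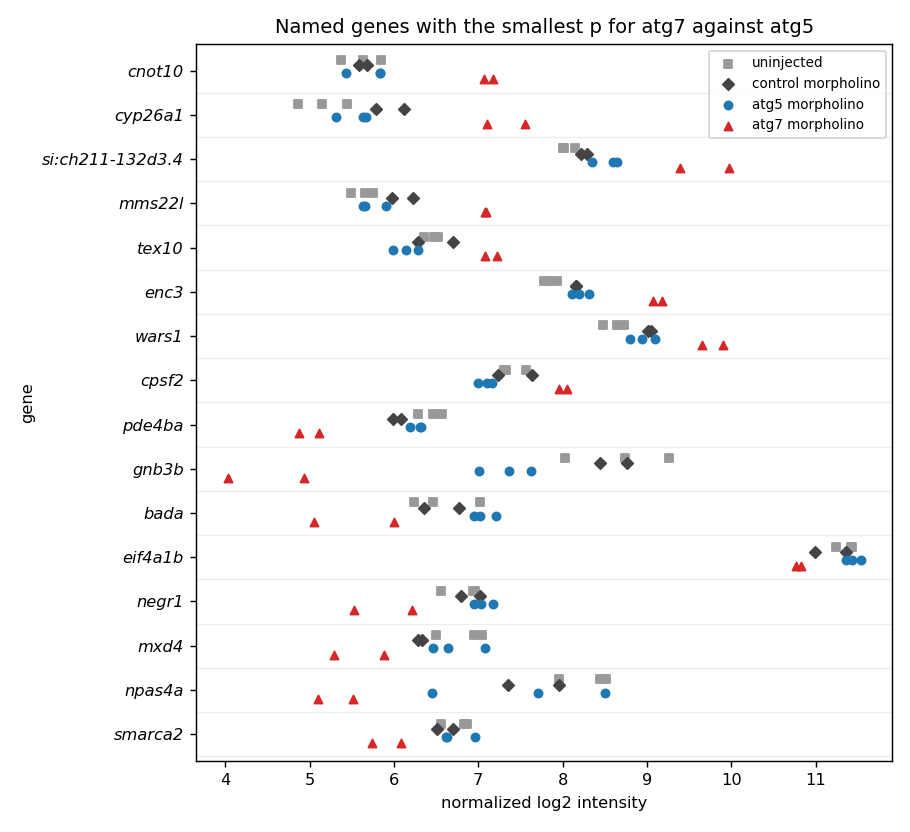
Normalized log2 intensity (horizontal axis) of 16 named genes, 8 in each direction, with 1 point per array coloured by group. They have the smallest p for atg7 against atg5 among genes whose atg5 and atg7 arrays do not overlap. The choice of genes thus set the 2 atg7 arrays outside the range of the 3 atg5 arrays. In gnb3b and si:ch211-132d3.4 the atg5 arrays lie clear of all 5 controls on the side of the atg7 arrays.

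Against the controls, the 2 knockdowns differed in how many probe sets passed the test. Limma called 0 of 10307 probe sets for atg5 (0.0%, smallest adjusted p 0.577, 779 or 7.56% with an unadjusted p under 0.05). For atg7 it called 59 (0.572%), 32 higher (0.31%) and 27 lower (0.262%), with 2330 (22.6%) at an unadjusted p under 0.05. The comparisons share their 5 control arrays, and the test of the difference between the knockdowns is the one above, with 2 calls. The atg7 count was 3 without atg7 1 and 13 without atg7 2. Leaving out a control array gave 21, 93 and 24 for uninjected 1, 2 and 3, and 10 and 14 for control morpholino 2 and 3. It was 6 against control morpholino alone and 317 against uninjected embryos alone.

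The order of the groups was read from the arrays themselves, a description chosen after the data were seen. Both atg7 arrays lay beyond the 3 atg5 arrays at 3453 probe sets (33.5%), 1881 higher (18.2%) and 1572 lower (15.3%). At 1697 of them (16.5%) the atg7 arrays also lay beyond the controls while atg5 and control arrays overlapped, 10.2% higher and 6.29% lower. At 163 probe sets (1.58%) the atg5 arrays alone stood apart, 1.07% higher and 0.514% lower. A group of 2 arrays separates more readily than a group of 3, so these 2 shares cannot be set against each other. All 5 morphant arrays lay beyond all 5 controls at 436 probe sets (4.23%), 295 higher (2.86%) and 141 lower (1.37%). At 260 of these (2.52%) the knockdowns overlapped each other, 1.75% higher and 0.776% lower. At 157 (1.52%) the groups formed steps from controls through atg5 to atg7, 0.98% upward and 0.543% downward. The controls lay between the knockdowns at 13 probe sets (0.126%), with atg7 the higher at 5 (0.0485%) and the lower at 8 (0.0776%).

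Both knockdowns together were also fitted against the controls, each at equal weight. A call here can come from 1 knockdown alone. It called 9 of 10307 probe sets (0.0873%), 6 higher (0.0582%) and 3 lower (0.0291%), and 1919 (18.6%) had an unadjusted p under 0.05. In 3 of the 6 higher calls, all without a symbol, only the atg7 arrays lay beyond both the controls and atg5. They were Dr.20386.1.S1_at, DrAffx.2.105.S1_at and Dr.2040.1.A1_at, which was also called between the knockdowns, with atg5 minus controls at 0.48, 0.69 and 0.16 and atg7 minus controls at 2.201, 3.18 and 3.08. In the other 6 calls all 5 morphant arrays lay beyond the controls, with atg7 further out than atg5. The named genes among them were en1b and si:ch211-132d3.4, which rose, and krt97, gnb3b and rcvrn3, which fell. en1b, an engrailed homeobox gene, was at 7.45, 7.35 and 7.14 in atg5 and 7.56 and 7.80 in atg7 hearts, against 6.13 to 6.93 on the controls. Every morphant array lay above every control array, by 0.90 on average (SE 0.15, adjusted p = 0.0482), and the knockdowns differed by 0.37 (95% interval -0.08 to 0.81). krt97, a keratin gene, was at 10.85, 10.73 and 10.56 in atg5 and 10.37 and 10.25 in atg7 hearts, with controls from 10.99 to 11.58. All 5 morphant arrays lay below the controls, by -0.79 (SE 0.12, adjusted p = 0.0428), in the order controls, atg5, atg7. The knockdowns differed by -0.40 (95% interval -0.78 to -0.03). Against control morpholino alone, en1b differed by 0.52 in atg5 and 0.89 in atg7 hearts, and krt97 by -0.36 and -0.77. Against uninjected embryos alone, these were 0.91 and 1.28 for en1b, and -0.82 and -1.22 for krt97. Both genes thus differed less from the injected than from the uninjected controls.

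The count moved with single arrays. It was 0 without atg5 2, atg5 3, atg7 2, uninjected 1, uninjected 3, control morpholino 2 or control morpholino 3, 3 without atg7 1, 8 without atg5 1 and 33 without uninjected 2. It was 53 on the deposited scale, with 16 higher and 37 lower, 0 against control morpholino alone and 23 against uninjected embryos alone. Directions did not turn for the named genes: leaving out any one array moved en1b between 0.83 and 0.97 and krt97 between -0.83 and -0.75.

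Genes just short of a call also had both knockdowns on one side of the controls. The choice of genes favoured this, since they had the smallest p for both knockdowns against the controls. They were also taken for morphant arrays clear of the controls, or for a 95% interval between the knockdowns inside plus or minus 1. col1a2, a chain of type I collagen, was at 10.10, 9.80 and 9.87 in atg5 and 10.22 and 9.67 in atg7 hearts, against 10.61 to 10.96 on the controls. The knockdowns overlapped, with a difference of 0.03 (95% interval -0.39 to 0.44), and both lay below the controls, by -0.79 (SE 0.14, adjusted p = 0.0520). A dimmer col1a2 probe set gave -0.37 against the controls, with the groups overlapping. hmgcs1, an enzyme of cholesterol synthesis, lay below the controls by -0.62 (SE 0.12, adjusted p = 0.0763), and bhlhe40, a clock-related repressor, by -0.61 (SE 0.14). The Ras pathway inhibitor spred1 lay lower by -0.98 (SE 0.23), but another of its probe sets gave -0.13.

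On the higher side, dnaaf10, needed to assemble ciliary dynein, was at 8.71, 8.50 and 8.64 in atg5 and 8.79 and 9.06 in atg7 hearts, with controls from 7.46 to 8.15. All morphant arrays exceeded the controls, by 0.89 (SE 0.15, adjusted p = 0.0520). vsir, an inhibitory receptor of immune cells, lay higher by 0.78 (SE 0.16) with the atg5 and atg7 arrays interleaved. lsm6, of the ring that binds U6 snRNA, lay higher by 0.61 (SE 0.13), and polr2c, a subunit of RNA polymerase II, by 0.62 (SE 0.13). For vsir and lsm6 the knockdowns differed by -0.28 (SE 0.23) and 0.15 (SE 0.18).

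**Figure D3:**
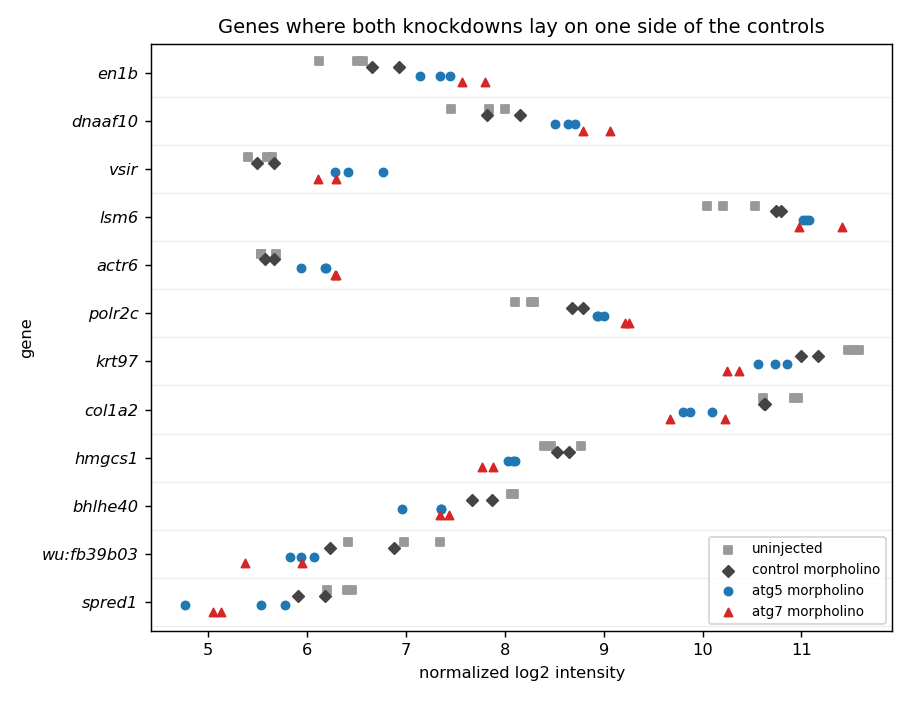
Normalized log2 intensity (horizontal axis) of 12 genes chosen by the smallest p of both knockdowns against the controls among those whose difference between the knockdowns had a 95% interval inside plus or minus 1, with 1 point per array coloured by group. In each gene the atg5 and atg7 arrays lie on the same side of the control arrays, for example en1b above 6.93 and krt97 below 10.99. The choice by p and by interval favoured this.

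How closely the knockdowns matched could be bounded gene by gene. At 6432 probe sets (62.4%) the 95% interval of the difference lay inside plus or minus 1 on the log2 scale, and its median width to either side was 0.59. Cytosolic ribosomal protein genes were bounded in 70 of 70 cases (median difference 0.00), and oxidative phosphorylation genes in 67 of 71 (median 0.11). Proteasome genes were bounded in 32 of 42 and heat shock genes and chaperones in 33 of 44 (median 0.03). Cell cycle genes were bounded in 17 of 79, and photoreceptor genes in 1 of 30. A bound depends on the spread of a gene as well as on its difference. The ribosomal list had a mean level of 12.47 to 12.58 on every array, where all probe sets had 6.94 to 6.96. Whether quantile normalization narrowed the bounds at such high levels was not tested.

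Over all probe sets, the shift of each knockdown was also compared with the arrays of the other control group, so that no array served both. The correlation across 10307 probe sets was 0.53 between atg5 minus uninjected and atg7 minus control morpholino, and 0.35 between atg5 minus control morpholino and atg7 minus uninjected. Without the morphant arrays numbered 1 these were 0.59 and 0.43. Probe sets are not independent, and all arrays were normalized together, so these values are a description.

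Photoreceptor genes were, of the 31 lists, the one with the largest median difference between the knockdowns, and they lay lowest on the atg7 arrays. Of 45 such genes on the array, 30 passed the filter, and a gene could pass it through the group in which it was high. In these 30 the median was -1.52 between the knockdowns, with 27 lower in atg7 hearts, against -0.00 over all probe sets, of which 5132 lay higher and 5175 lower. The medians against the controls were -0.84 for atg5 and -2.16 for atg7 hearts. Relative to the control mean, the list's median level was -1.56, -0.72 and -0.49 on atg5 1, 2 and 3 and -2.70 and -1.86 on the atg7 arrays, and it ran from -0.73 to 0.48 on the control arrays. The 2 atg7 arrays were the lowest and atg5 1 next, while atg5 2 and atg5 3 lay inside the control range, near its lower end. In 18 of the 30 both atg7 arrays lay below all atg5 arrays, where 15.3% of all probe sets did, and in 10 the groups stepped down from controls through atg5 to atg7, where 0.543% of all probe sets did. The median difference ran from -1.99 to -1.05 when single atg5 or atg7 arrays were left out, and was -1.16 with intensities under 16 set to 16.

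Genes of the light-detecting cascade of cones had wide steps. gnb3b, the cone transducin beta subunit was at 7.01, 7.63 and 7.36 in atg5 and 4.04 and 4.94 in atg7 hearts, against 8.03 to 9.26 on the controls. The 3 groups did not overlap, and the difference between the knockdowns was -2.85 (SE 0.54, adjusted p = 0.142, 95% interval -4.01 to -1.68). Both together fell against the controls by -2.73 (SE 0.38, adjusted p = 0.0293), and atg7 alone fell by -4.15 (adjusted p = 0.00343), while atg5 alone differed by -1.30 (adjusted p = 0.656). gnat2, the cone transducin alpha subunit, was at 7.24, 7.75 and 8.43 in atg5 and 3.84 and 5.68 in atg7 hearts, with controls from 8.58 to 9.99, a floored difference of -2.97. gngt2b, the cone gamma subunit, was at 10.42, 11.01 and 10.92 in atg5 and 5.57 and 8.51 in atg7 hearts, and all controls lay at 11.04 or above. It differed by -3.75 (SE 1.23), and the atg7 arrays also lay far from each other.

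Opsins showed the same order. opn1sw1, the ultraviolet cone opsin, was at 7.57, 7.69 and 7.72 in atg5 hearts and under an intensity of 16 on atg7 1 and at 4.05 on atg7 2, with controls from 8.74 to 10.29. The floored difference between the knockdowns was -3.64, and atg5 minus controls was -1.79, which did not pass the test (adjusted p = 0.777). opn1sw2, the blue opsin, and opn1mw1, a green opsin, had floored differences of -3.82 and -3.17, and in both the groups were in steps. Of the cone phosphodiesterase, the catalytic gene pde6c fell in atg7 hearts against the controls (floored -3.66, adjusted p = 0.0275), and its atg5 arrays, at 5.12, 5.97 and 6.001, also lay below the lowest control, 6.70. rcvrn3, a recoverin that senses calcium, fell with both knockdowns pooled (adjusted p = 0.0428, floored size -1.88). Of the 30 genes, 8 fell in atg7 hearts against the controls, where 0.262% of all probe sets did. In atg5 hearts 0 passed that test, as did 0 of all 10307 probe sets, so that count says nothing about these genes.

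Transcription factors of the retina had smaller differences, with no test against the other genes. crx, the transcription factor of photoreceptor precursors, was at 7.27, 9.01 and 8.91 in atg5 and 6.55 and 8.24 in atg7 hearts, with controls from 8.02 to 8.96. The array numbered 1 of each group lay below the control range, and the difference was -1.003 (SE 0.81). otx5, nr2e3 and rx3 differed by -0.29 (SE 0.75), 0.20 (SE 0.54) and -0.17 floored. Among rod genes, gnat1, the rod transducin alpha subunit, differed by a floored -1.11 and gngt1, the rod gamma subunit, by -1.57 (SE 0.45).

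**Figure D4:**
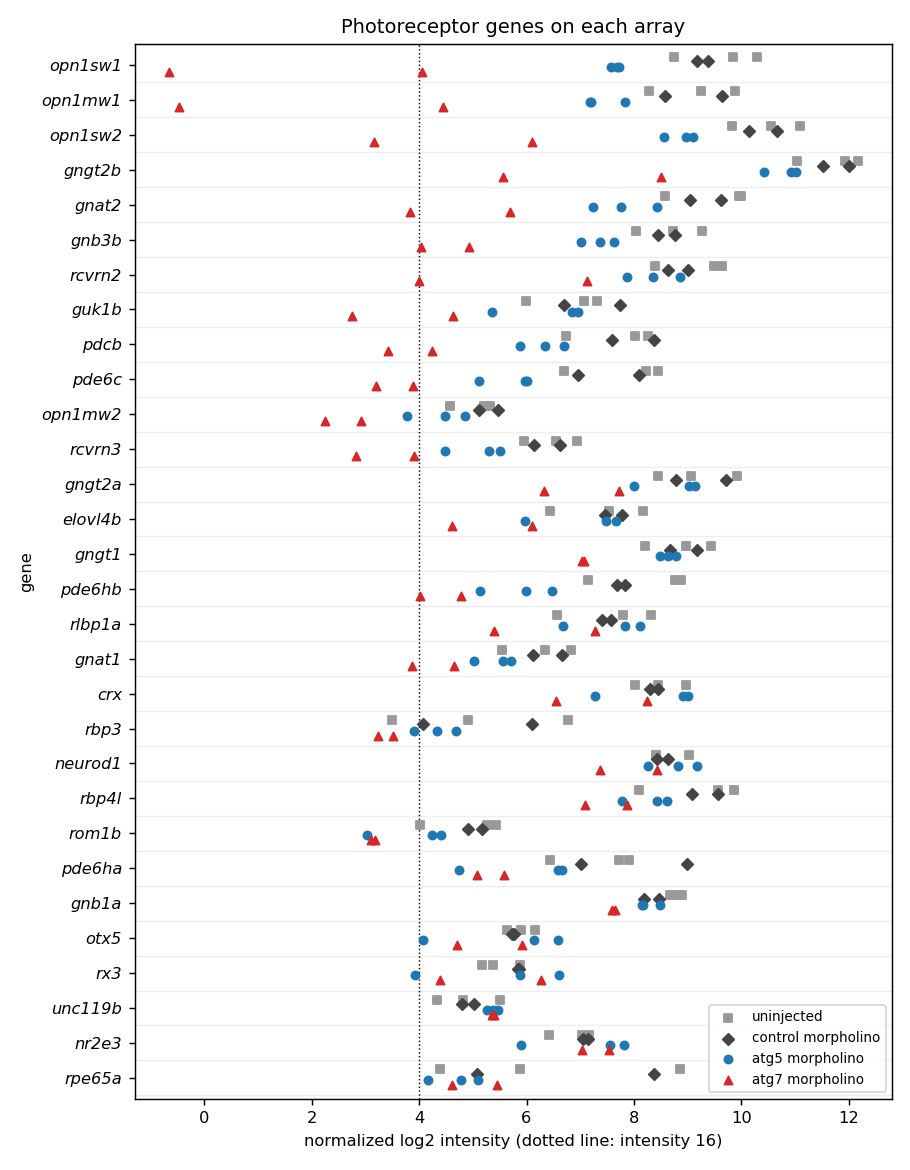
Normalized log2 intensity (horizontal axis) of the 30 photoreceptor genes that passed the filter, with 1 point per array coloured by group and a dotted line at an intensity of 16. In 10 genes the control, atg5 and atg7 arrays form 3 steps downward, as in gnb3b with lowest control 8.03, atg5 arrays from 7.01 to 7.63 and atg7 arrays at 4.04 and 4.94.

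Cell cycle and DNA replication genes lay higher in atg7 hearts. Of 85 on the array 79 passed the filter, 77 of them higher in atg7 than in atg5 hearts, with a median of 0.56. In 62 both atg7 arrays exceeded all atg5 arrays and in 0 they lay below, where 18.2% and 15.3% of all probe sets did so. None was called between the knockdowns, where 0.0194% of all probe sets were. The list's level against the control mean was 0.14, 0.17 and 0.23 on the atg5 arrays and 0.90 and 0.61 on the atg7 arrays, while the controls ran from -0.29 to 0.46. The atg5 arrays lay inside the control range and the atg7 arrays above it. Without atg7 1 the median difference was 0.43, and without atg7 2 it was 0.78.

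Replication enzymes led this list. rrm1, a subunit of ribonucleotide reductase, was at 9.74, 10.14 and 9.94 in atg5 and 11.08 and 10.90 in atg7 hearts, with controls from 9.44 to 10.32. It rose in atg7 hearts against the controls by 1.19 (adjusted p = 0.0406), and between the knockdowns it differed by 1.05 (SE 0.25, adjusted p = 0.226). pold1, the catalytic subunit of DNA polymerase delta, differed by 1.202 (SE 0.27), pole2, of polymerase epsilon, by 1.396 (SE 0.36) and the helicase subunit mcm4 by 0.997 (SE 0.26). Against the controls the atg5 differences of these 3 genes were -0.12, -0.28 and -0.09, and apart from pold1 on atg5 1 the atg5 arrays lay in the control range.

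Proteasome genes also lay higher in atg7 hearts, while the list of the unfolded protein and amino acid response lay on neither side. Of 47 proteasome genes on the array 42 passed the filter, and 38 were higher in atg7 hearts, with a median of 0.28, and 26 had non-overlapping arrays in that direction, as 18.2% of all probe sets did. psma1, of the core, was at 9.19, 9.04 and 9.36 in atg5 and 9.80 and 10.02 in atg7 hearts, and the controls ran from 9.04 to 9.60. Both atg7 arrays lay above the control range and no atg5 array did, a difference of 0.71 (SE 0.17, adjusted p = 0.226). adrm1, a ubiquitin receptor of the proteasome, differed by 0.65 (SE 0.16) and psmc2, an ATPase of its cap, by 0.47 (SE 0.14). Against the controls the list had a median of 0.19 in atg5 and 0.49 in atg7 hearts. These were 0.05 and 0.37 against control morpholino alone, and 0.33 and 0.68 against uninjected embryos alone. In the unfolded protein and amino acid response the list's median was 0.02, with 9 of 32 members higher and 8 lower without overlap, beside 18.2% and 15.3% of all probe sets. The tRNA synthetase genes iars1 and mars1 differed by 1.06 (SE 0.23) and 0.65 (SE 0.18), and phgdh, of serine synthesis, by 0.65 (SE 0.21). xbp1, a transcription factor of the unfolded protein response, differed by -0.42 (SE 0.22). wars1 rose in atg7 hearts against the controls by 0.95 (adjusted p = 0.0204).

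Leukocyte genes lay higher in atg7 hearts as well. Of 20 leukocyte genes kept of 31, 19 were higher, with a median of 0.46. In 9 both atg7 arrays lay above all atg5 arrays and in 1 below, where 18.2% and 15.3% of all probe sets did so. The list's level against the control mean was 0.45, 0.20 and 0.08 on the atg5 arrays and 0.69 and 0.47 on the atg7 arrays. On atg5 1 it was thus close to atg7 2. mmp13a, a collagenase of inflamed tissue, was at 7.65, 6.97 and 6.98 in atg5 and 9.29 and 8.13 in atg7 hearts, against 5.68 to 7.01 on the controls. It rose in atg7 hearts against the controls by 2.36 (adjusted p = 0.0236), and the knockdowns differed by 1.51 (SE 0.42, adjusted p = 0.270). mmp9, marco, a macrophage scavenger receptor, and lyz, the neutrophil lysozyme, differed by 1.29 (SE 0.44), 1.34 (SE 0.51) and 0.66 (SE 0.21). Of 22 erythrocyte genes 16 were kept and 13 lay higher (median 0.62, but 0.19 without atg7 1), while the abundant embryonic globin gene hbbe2 differed by -0.25 (SE 0.10). Against the control mean the erythrocyte list lay at 0.66 and 0.29 on the atg7 arrays, where the controls ran from -0.34 to 0.44. Of the atg5 and atg7 arrays only atg7 1 thus left the control range. Notch pathway genes had a median of 0.30, which was -0.07 without atg7 1. Within them the Notch target her4.2 rose in atg7 hearts against the controls (adjusted p = 0.0393, floored size 1.39), from under 16 on all 5 control arrays. her4.5 is a member of the same near-identical cluster, and the probe sets of both genes can cross-hybridize. The difference of her4.5 between the knockdowns was 1.35 (SE 0.36).

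Markers of other tissues did not move as one between the knockdowns. Of 10 lens genes on the array 5 passed the filter, and all 5 were higher in atg7 hearts (median 0.76). The lens level against the control mean was 0.62, -0.65 and -0.14 on the atg5 arrays and 0.67 and 0.69 on the atg7 arrays. On the control arrays it ran from -0.81 to 0.61. Neuron and glia genes had a median of -0.38, with 37 of 44 lower in atg7 hearts, but -0.07 without atg7 1. sncgb, a synuclein gene, fell in atg7 hearts against the controls (-1.75, adjusted p = 0.0276), and the knockdowns differed by -1.22 (SE 0.32). The intermediate filament gene inab, in contrast, differed by 0.83 (SE 0.23). Epidermis genes had a median of -0.23, and -0.05 without atg7 1. The liver and yolk list was at -0.71 in atg5 and -0.69 in atg7 hearts against the controls, and their median between the knockdowns was -0.01. Relative levels differed by array number. The list's level against the control mean was 0.31 on atg5 1 and 0.26 on atg7 1, and -1.10, -1.35 and -1.63 on atg5 2, atg5 3 and atg7 2. The median between the knockdowns was therefore -0.84 without atg7 1 and 0.88 without atg7 2. Exocrine pancreas genes behaved alike, at 0.31 and 0.25 on the arrays numbered 1 and -1.50, -1.21 and -1.90 on the others. What part this makeup had in the cell cycle, proteasome and photoreceptor differences was not tested.

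Contractile genes of the heart differed more by array number than by the gene targeted. The contractile list had a median of 0.09 between the knockdowns, which was -0.49 without atg7 1 and 0.75 without atg7 2. myl7, the cardiac myosin light chain, was at 9.84, 6.74 and 7.69 in atg5 and 10.06 and 6.91 in atg7 hearts, with controls from 6.63 to 8.43. The arrays numbered 1 of both groups stood above the controls and the others lay within them, and the difference was 0.39 (SE 1.05). tnnt2a, cardiac troponin T, followed the same arrays (9.03, 6.36 and 7.30, then 9.64 and 6.55). Away from this, nexn, a protein of the Z-disc, was at 7.91, 8.01 and 8.13 in atg5 and 7.07 and 6.96 in atg7 hearts, the latter below every control array, and the controls ran from 7.36 to 8.77 (SE of the difference 0.36). gja1b, a gap junction gene, differed by -0.49 (SE 0.20) with non-overlapping arrays. mef2d, a transcription factor of muscle, fell in atg7 hearts against the controls (-1.47, adjusted p = 0.0406) and differed by -1.03 (SE 0.31) from atg5. A dimmer mef2d probe set did not repeat the difference between the knockdowns (floored -0.0038). It gave a floored -0.68 against the controls in atg5 and in atg7 hearts, with no call. Endothelium genes had a median of 0.13 and matrix genes of -0.16, and neither direction held: the first was -0.07 without atg5 2 and the other 0.0054 without atg7 2.

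**Figure D5:**
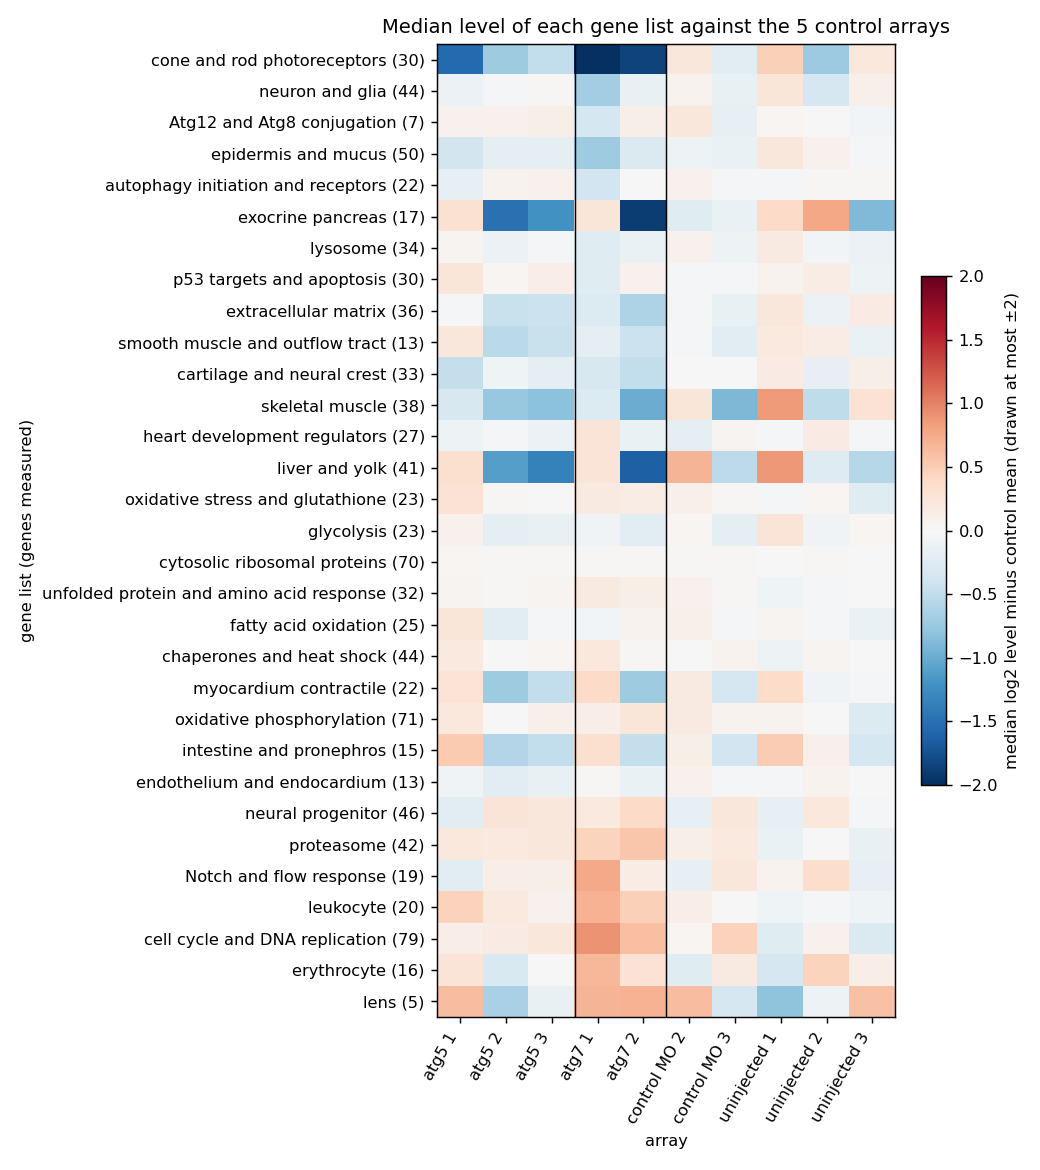
Median log2 level of each gene list (vertical axis, with the number of genes measured) on each of the 5 morphant and 5 control arrays (horizontal axis), against the mean of the 5 control arrays, with colours drawn at most to plus or minus 2. Photoreceptors are lowest on the atg7 arrays (-2.70 and -1.86), cell cycle genes are highest on them (0.90 and 0.61), and among the morphant arrays liver and pancreas are higher on those numbered 1 than on the others of both groups.

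In 11 named genes the knockdowns lay on opposite sides of the controls, each by a small step and with no call. They were picked because all 5 control arrays lay between the knockdowns, so the choice set this order. That order held at 13 of 10307 probe sets (0.126%). Higher in atg7 and lower in atg5 were cpsf2 and ints10, a subunit of the Integrator complex, as well as arhgef12a, rab40c and nr2f6b. ints10 was at 6.03, 6.39 and 6.30 in atg5 and 7.10 and 7.04 in atg7 hearts, with controls from 6.43 to 6.90 between them. The difference was 0.83 (SE 0.20, adjusted p = 0.226). Lower in atg7 and higher in atg5 were rab2a, a GTPase of the Golgi, chmp4bb, a subunit of the ESCRT-III filament that severs membranes, sft2d1, idh3a, tlx3b and lmo3. rab2a was at 10.57, 10.51 and 10.52 in atg5 and 10.16 and 10.18 in atg7 hearts, with controls from 10.24 to 10.41. The difference was -0.36 (SE 0.12, adjusted p = 0.312). chmp4bb was at 7.76, 7.72 and 7.58 in atg5 and 6.67 and 6.77 in atg7 hearts, with controls from 7.05 to 7.47, a difference of -0.97 (SE 0.32, adjusted p = 0.319). Other probe sets of idh3a (0.29) and rab40c (-0.28) had the opposite sign, while those of lmo3 (-0.27 and -0.52) kept it.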

How the data were processed

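RNA of 13 heart preparations had been measured on 1-colour Affymetrix zebrafish arrays, with 1 array per sample. The deposited values are intensities on a linear scale, 1 for each probe set, and the submitters' processing notes name MAS5 without a version. Of 15617 probe sets, 115 controls were left out. The log2 of the deposited intensities was quantile normalized over the 13 arrays. The filter asked for a level over that array's 40th percentile on 2 or more arrays and left 10307 probe sets (66.5%). A model with 5 group means was fitted in limma 3.58.1, under R 4.3.3, to the 13 arrays, with an intensity trend in the prior. It had 8 residual degrees of freedom and 4.61 from the prior. All p-values are two-sided and were adjusted by Benjamini and Hochberg over all kept probe sets. The fit was tested on simulated data. No tool other than limma was run, and the number of arrays limits the precision.

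Gene names came from the platform's annotation table and were updated to current symbols: of 15502, 10795 had 1 symbol, 135 several and 4572 none. In a list, a gene with several probe sets counted once, through the brightest. The shares over all probe sets also hold those without a symbol. Counted as in the lists, 3622 of the 6676 genes with 1 symbol lay higher in atg7 hearts, with a median of 0.04. Both atg7 arrays lay above all atg5 arrays in 1405 of them and below in 866. The knockdowns, the 31 gene lists and the rules for named genes were chosen with earlier results of these data known, so no list is independent support. Named were the conjugation genes, the smallest p-values each way (called ones whose arrays did not overlap, up to 12, otherwise 8), up to 4 members of each list by p, and 6 in each direction of 2 kinds: genes with the controls between the knockdowns, and genes bounded between the knockdowns. The floor at an intensity of 16 was chosen after the data were seen. Further photoreceptor, heart, globin, amino acid response and tissue genes were named after their values were seen. Title numbers were not taken to pair arrays, since the labels do not say so. Same-numbered arrays of different groups deviated together from their group means, at a correlation over 0.1, in 12 of 22 pairs. The median correlation was 0.13, against -0.07 for pairs of different number. It was 0.43 for atg5 1 with atg7 1 and 0.31 for atg5 2 with atg7 2. The 2 atg7 arrays deviate from their mean by equal and opposite amounts, so an atg5 array gives the same value with opposite sign for each. The other atg5 and atg7 pairs thus gave -0.43, -0.31, -0.33 and 0.33. Deviations cancel out within a group, so the values for the same and for different numbers are tied to each other. What part the number had in the differences was not tested. Alternatives were other scalings, filters, priors, control groups, a replicate block and leaving out arrays. No sequence or coordinate is given, since no genome of the array's design was used here.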

Additional observations from a re-analysis of the deposited data

How the results depend on the processing

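Between the knockdowns the 2 calls became 14 on the deposited scale, 5 with array medians subtracted, 5 with a robust prior, 0 with a stricter filter, 0 with only both groups in the fit and 1 without the morphant arrays numbered 1, and leaving out 1 array gave 0 to 2. The 9 calls of both knockdowns against the controls became 53 on the deposited scale and 28 with intensities under 16 set to 16. They became 67 with only the groups compared, 1 without the intensity trend and 14 with a robust prior. Without the morphant arrays numbered 1 they became 100, and with the controls as 1 group 34. The count was 0 against control morpholino and 23 against uninjected embryos. Leaving out 1 array gave 0 to 33. The 59 calls of atg7 became 233 with array medians subtracted, 97 without the morphant arrays numbered 1 and 137 with the controls as 1 group. They became 6 against control morpholino, 317 against uninjected embryos, and 3 to 93 with 1 array left out. For atg5 the count stayed at 0 in every one of these except the replicate block. The 6432 bounded probe sets became 3083 on the deposited scale and 4287 to 5827 with 1 array left out. The cause of these shifts was not tested, apart from the fewer arrays or probe sets that some settings hold.

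The title number was also fitted as a replicate block, though the labels do not say that the numbers pair the arrays. The counts were then 1 between the knockdowns, 43 for both against the controls, 2 for atg5 and 65 for atg7. By correlation of deviations from group means, not of levels, 7 of 13 arrays were nearest to one of their own number. Of 1012 values of 56 named gene results, 879 kept their direction and side of the threshold, 57 lost a call, 68 gained one and 8 changed sign, all in small differences between the knockdowns. They fell in atg5 Dr.12686.2.S1_at, atg12 and gabarapl2. The atg5 value was -0.12 without the morphant arrays numbered 1, and -0.033 to 0.269 with 1 array left out. For atg12 it was -0.039 on the deposited scale, -0.16 under the replicate block, and -0.16 to 0.17 with 1 array left out. For gabarapl2 it was 0.064 without the morphant arrays numbered 1, and -0.779 to 0.16 with 1 array left out. On the deposited scale, between 25.3% and 35.6% of the probe sets on an array lay under an intensity of 16. Normalized levels under an intensity of 16 limit the size of the photoreceptor differences.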

Other observations

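On the becn1 arrays, which were in no test against the other groups, the photoreceptor list had a median level of -3.29, -1.58 and -1.12 against the control mean on becn1 1, 2 and 3, so becn1 1 lay below both atg7 arrays. The cell cycle list had levels of 0.99, 0.34 and 0.15 on the same arrays, with becn1 1 again near atg7 1. gnb3b lay at 4.46, 5.44 and 6.73 on becn1 1, 2 and 3. Of the 2 probe sets called between the knockdowns, Dr.2040.1.A1_at lay at 5.45, 5.88 and 5.22 on the becn1 arrays, near the atg5 and control arrays and below the atg7 arrays. Dr.25060.3.A1_at lay at 4.54, 4.67 and 4.62 on them. These levels were above the highest control (4.32) and the highest atg5 array (4.52), and below both atg7 arrays.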
